A study of Mus musculus with 16 samples.

Results

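Nanog, Esrrb, Tfcp2l1, Prdm14, Nr0b1, Nr5a2, Zfp42, Tbx3 and Gbx2 are 9 transcription regulators of the naive state of mouse embryonic stem cells. They were taken by gene symbol from a table of 41202 Ensembl gene identifiers. All 9 were among the 13166 genes that reached 1 FPKM (a transcript level corrected for transcript length and library size) in at least 2 of 8 libraries. When wild-type cells left 2iL for 48 h, 8 of the 9 fell and Gbx2 rose. In Dgcr8-/- cells the same 8 genes also fell, each by less than in the wild type, and the difference between the genotypes' changes passed the test for 7 of them, all but Tbx3. At 48 h, Nr0b1 stood at 81.1% of its 2iL level, against 4.26% in the wild type, and Nanog at 19.8%, against 2.52%.

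The libraries came from mouse embryonic stem cells of 129/C57BL/6 strain background at passages 9-11. Dgcr8 encodes the RNA-binding partner of the nuclease Drosha, and cells without it do not process canonical microRNAs. The 4 groups, of 2 libraries each, were wild-type cells in 2iL, wild-type cells after 48 h of differentiation, Dgcr8-/- cells in 2iL and Dgcr8-/- cells after 48 h of differentiation. 2iL is medium with inhibitors of MEK and GSK3 plus the cytokine LIF, and the differentiation medium was N2B27 with bFGF and KSR. Each genotype was represented by 1 line, v65 for the wild type and ES1 for the knockout, so genotype and line cannot be told apart. The design calls the paired libraries biological replicates without saying what was repeated, so the p-values measure the spread between these libraries only. Differences below are on the log2(FPKM + 1) scale, which understates the change of genes with low values, and a gene was called changed at a Benjamini-Hochberg adjusted p below 0.05 in limma over all 13166 genes.

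Naive pluripotency is the state of the preimplantation epiblast. In culture it is held by a network of factors that activate one another and sit on shared enhancers together with Oct4 and Sox2. LIF acts on this network through STAT3 (Tfcp2l1, Gbx2) and PI3K signalling (Tbx3), and inhibition of GSK3 relieves repression of Esrrb by Tcf7l1. Once the inhibitors and LIF are withdrawn, cells shut the network down and pass through a formative state before they can respond to lineage signals.

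Dgcr8 was lower in the libraries labelled as knockout: it was at 18.3 to 20.9 FPKM in the 4 wild-type libraries and at 7.80 to 9.33 FPKM in the 4 knockout libraries. Its log2 difference between knockout and wild type was -0.95 in 2iL (adjusted p = 8.0e-06) and -1.31 at 48 h (adjusted p = 9.6e-07). The remaining gene-level signal does not show which part of the gene was deleted, so the check covers the level only. The number of reads per library is unknown; between 11410 and 12024 genes reached 1 FPKM. Pou5f1, which encodes Oct4 and marks pluripotent cells of any state, was at 695 to 990.2 FPKM in all 8 libraries. The other genes listed for pluripotent cells were at 30.2 to 256 FPKM (Sox2), 30.6 to 49.7 (Sall4) and 111 to 349 (Utf1). From 2iL to 48 h in the wild type, the log2 change was -2.04 for Sox2 and 1.07 for Utf1. Of the markers listed for other cell types, Cdx2, Elf5, Hand1, Gata6, Sox17, Sox7, Pdgfra, T, Mesp1, Mixl1, Hes5 and Zfp521 stayed at or below 0.747 FPKM in every library, and the fibroblast genes Col1a1, Col1a2, Col3a1, Lum and Postn at or below 0.464. These genes were picked from longer lists with the values known. Other genes of the same lists were higher. The highest value in each list was 31.1 FPKM for Tfap2c (trophectoderm), 21.9 for Nes (neuroectoderm), 12.6 for Dcn (fibroblast), 9.53 for Col4a1 (primitive endoderm) and 5.61 for Evx1 (primitive streak). Krt18 reached 19.7 and Pax6 6.75 FPKM. The 10 fibroblast and feeder genes summed to 2.94 to 3.16 FPKM in wild-type 2iL and 22.9 to 23.8 in the wild type at 48 h. In the knockout they summed to 2.29 to 2.35 in 2iL and 19.1 to 19.2 at 48 h. The wild-type sum at 48 h came mostly from Thy1 (9.20 and 9.26) and Tagln (9.02 and 9.38), with less from Acta2 and Dcn. The knockout sum at 48 h came mostly from Dcn (11.9 and 12.6) and Thy1 (5.84 and 5.35), with Tagln at 0.902 and 0.928 and Acta2 at 0. The part of these genes in the results was not tested. In bulk RNA, fewer cells of a type and less RNA per cell cannot be told apart.

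Promoter windows of 300 bases, from 250 bases before to 50 bases after a start site, were matched in RefSeq (GRCm38.p6, the patch release of mm10) for 7 of the 9 genes, with 10 windows in all. The windows of Nanog, Zfp42 and Gbx2 are shown because these genes had 3 different courses: Nanog fell steeply in both genotypes, Zfp42 fell in the wild type and kept most of its level in the knockout, and Gbx2 rose in both. Sequences run 5′ to 3′ on the gene's strand, and capitals mark every match, on either strand, to the octamer ATGCAAAT bound by Oct4, its core ATGCAAA, the SOX core CATTGT or the KLF motif GGGNGGGG.
Nanog, chr6:122707239-122707538, plus strand: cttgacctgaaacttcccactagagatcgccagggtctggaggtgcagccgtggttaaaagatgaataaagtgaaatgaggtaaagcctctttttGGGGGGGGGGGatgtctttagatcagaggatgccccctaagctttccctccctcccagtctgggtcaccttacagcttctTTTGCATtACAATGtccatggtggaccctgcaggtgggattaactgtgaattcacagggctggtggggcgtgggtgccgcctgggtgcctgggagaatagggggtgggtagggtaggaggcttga
Zfp42, chr8:43306960-43307259, minus strand: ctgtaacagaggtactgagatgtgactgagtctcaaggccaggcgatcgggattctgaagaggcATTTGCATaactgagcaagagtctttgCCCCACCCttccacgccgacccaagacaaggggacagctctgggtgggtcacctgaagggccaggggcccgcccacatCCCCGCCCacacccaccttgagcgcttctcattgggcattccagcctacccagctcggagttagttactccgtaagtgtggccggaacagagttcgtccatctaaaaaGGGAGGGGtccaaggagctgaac
Gbx2, chr1:89931127-89931426, minus strand: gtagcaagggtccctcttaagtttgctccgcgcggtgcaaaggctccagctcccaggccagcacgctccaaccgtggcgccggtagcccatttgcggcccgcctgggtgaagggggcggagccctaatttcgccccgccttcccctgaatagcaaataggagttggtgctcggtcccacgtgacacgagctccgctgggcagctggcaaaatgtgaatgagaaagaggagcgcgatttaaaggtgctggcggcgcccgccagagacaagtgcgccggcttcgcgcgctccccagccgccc
The Nanog window shown holds the octamer core from 75 bases and the SOX core from 67 bases before its start site. Both are in reverse orientation and 1 base apart, as in the composite sites that Oct4 and Sox2 are known to bind together. In another Nanog window, which overlaps the window shown, the same cores begin 151 and 143 bases before the start site. Among all 32851 windows of the same length, 4.63% hold the octamer core and 12.6% the SOX core; these 2 short motifs were chosen after the sequences had been read. Zfp42 was the single matched gene of the 7 with the whole octamer, which 1.74% of all windows hold and which includes the core. The KLF motif, in 33.2% of all windows, occurs in windows of Nanog, Esrrb, Nr5a2 and Zfp42, as 4 overlapping matches in 1 run of G in the Nanog window shown. Gbx2 holds none of the motifs searched and is rich in CpG, with 27 CpG dinucleotides against a median of 7 over all windows, and Tfcp2l1 has 21. No window of the 7 genes held the nuclear receptor site AAGGTCA (4.72% of all windows), the STAT3 motif TTCCNGGAA (1.15%), the TFCP2L1 pair of CCAG and CCAG with 6 bases between (3.44%), the TCF motif CTTTGAT (3.73%), the T-box site AGGTGTGA (1.28%) or the PRDM14 motif GGTCTCTAA (0.256%). These matches describe letters in the windows and were not tested against binding.

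Nanog, a homeodomain factor that can sustain self-renewal without LIF when overexpressed, lies at chr6:122707489-122714633 (mm10). It was at 208 and 216 FPKM in wild-type 2iL, 5.38 and 5.31 at 48 h, 273 and 298 in knockout 2iL, and 56.1 and 56.7 in the knockout at 48 h. The 4 groups did not overlap, and the knockout was above the wild type under both conditions. In the wild type Nanog fell by 5.07 on the log2 scale (SE 0.05, adjusted p = 2.2e-08), the fifth steepest fall of all genes tested. In the knockout it fell by 2.32 (adjusted p = 3.3e-07), and the difference between these changes was 2.75 (SE 0.07, adjusted p = 1.2e-06). At 48 h the knockout held 10.5 times the wild-type FPKM. The pseudogene Nanog-ps1 was listed at 0 to 2.35 FPKM and Nanog-ps2 at 0 in all libraries, and how reads common to them and Nanog were assigned is not given in the sources used here.

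Esrrb, an orphan nuclear receptor activated by Nanog and freed from Tcf7l1 when GSK3 is inhibited, lies at chr12:86361117-86521628. Its values were 167 and 169.9 FPKM in wild-type 2iL, 5.53 and 4.17 at 48 h, 178 and 188 in knockout 2iL, and 52.0 and 47.2 in the knockout at 48 h. The genotypes were close in 2iL (log2 difference 0.12, SE 0.11, adjusted p = 0.359) and lay 10.2-fold apart at 48 h. In the wild type Esrrb fell by 4.87 (SE 0.11, adjusted p = 1.1e-07), whereas it fell by 1.86 in the knockout (adjusted p = 1.2e-05); 2.88% and 27.1% of the 2iL level were left. The difference between the changes was 3.0 (SE 0.15, adjusted p = 1.3e-05). Of the 9 genes, Esrrb and Nanog had the closest courses over the 8 libraries, with a root mean square difference of 0.218 after each gene was centred on its own mean.

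Tfcp2l1, a CP2-family factor through which STAT3 acts on self-renewal, lies at chr1:118627923-118685168. It was at 66.4 and 62.5 FPKM in wild-type 2iL, 0.778 and 0.825 at 48 h, 92.7 and 86.5 in knockout 2iL, and 9.76 and 9.52 in the knockout at 48 h. The knockout was again above the wild type under both conditions with no overlap. Tfcp2l1 fell by 5.18 in the wild type (SE 0.06, adjusted p = 2.8e-08), on the log2(FPKM + 1) scale the second steepest fall of all genes tested. In the knockout it fell by 3.09 (adjusted p = 2.7e-07). The ranks of Tfcp2l1 and Nanog depend on the scale. By ratio of mean FPKM the wild-type fall was 39.7-fold for Nanog and 80.4-fold for Tfcp2l1, but 125-fold for Tbx3 and 457-fold for Prdm14. The level left at 48 h was 1.24% of 2iL in the wild type and 10.8% in the knockout, and the difference between the changes was 2.09 (SE 0.08, adjusted p = 5.6e-06).

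**Figure D1:**
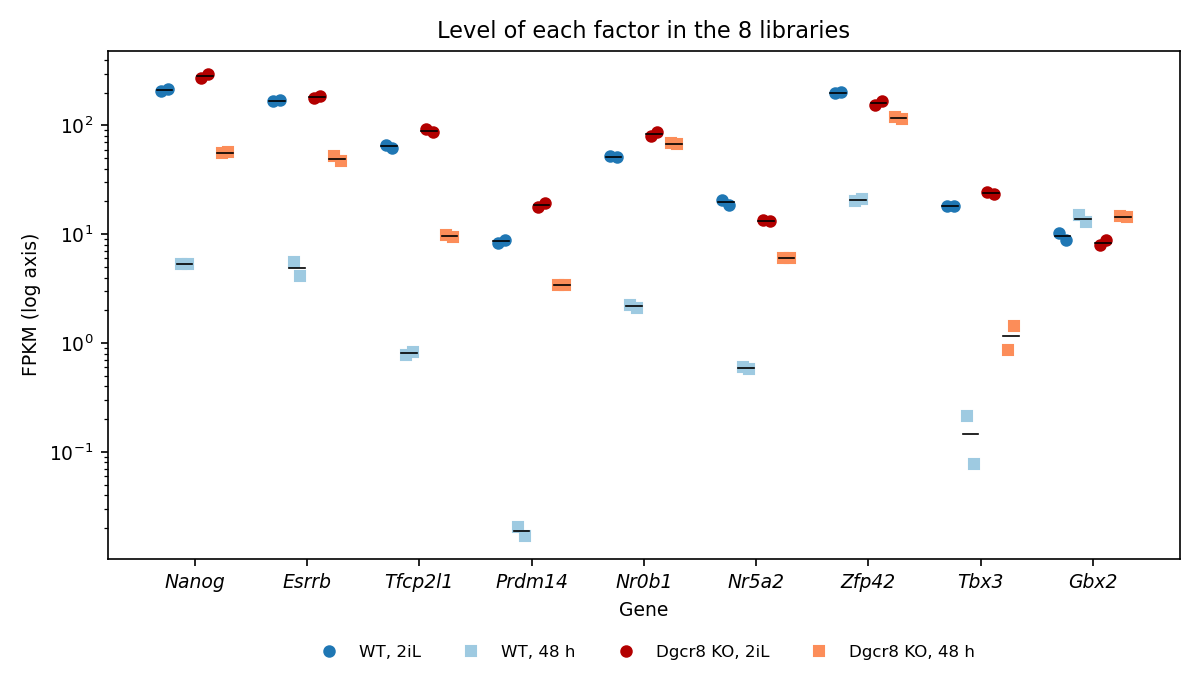
FPKM of the 9 genes in each of the 8 libraries, on a log axis; each point is 1 library and each black line the mean of 2. In the wild type at 48 h, 8 of the genes sit far below their 2iL points, while Nr0b1 and Zfp42 in the knockout at 48 h stay near theirs, at 68.3 and 67.1 and at 119 and 114 FPKM.

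Prdm14, a PR-domain zinc finger protein that represses Fgfr genes and de novo DNA methyltransferase genes in these cells, lies at chr1:13113428-13127163. It was at 8.26 and 8.93 FPKM in wild-type 2iL and at 0.0206 and 0.0170 at 48 h, the lowest level of the 9 in any group. In the knockout it was at 17.8 and 19.3 FPKM in 2iL and at 3.40 and 3.39 at 48 h. The knockout level was thus 2.16 times the wild-type level in 2iL (log2 difference 1.03, SE 0.08, adjusted p = 2.9e-05). At 48 h the knockout level was 18.3% of the knockout 2iL level and 39.5% of the wild-type 2iL level. Prdm14 fell by 3.23 in the wild type (SE 0.08, adjusted p = 1.5e-07) and fell by 2.15 in the knockout (adjusted p = 1.7e-06). The difference between the changes was 1.08 (SE 0.11, adjusted p = 2.9e-04) and depends on the pseudocount: it was 3.78 (adjusted p = 6.8e-06) when 0.1 was added instead of 1, and -0.05 (adjusted p = 0.584) when 5 was added. Its share left at 48 h in the wild type, 0.219% of 2iL, was 0.552% with quantile scaling.

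The nuclear receptors Nr0b1 and Nr5a2 had genotype differences of opposite sign in 2iL and of the same sign at 48 h. Nr0b1 (Dax1, at chrX:86191775-86195947), an orphan receptor without the usual DNA-binding zinc fingers that binds Oct4 and other factors as a corepressor, was at 51.9 and 50.9 FPKM in wild-type 2iL and at 2.26 and 2.12 at 48 h. In the knockout it was at 80.8 and 86.3 FPKM in 2iL and at 68.3 and 67.1 at 48 h, so that all 4 knockout libraries were above all 4 wild-type libraries. Nr0b1 fell by 4.04 in the wild type (SE 0.05, adjusted p = 3.0e-08) and fell by 0.30 in the knockout (SE 0.05, adjusted p = 0.00251). On the log2(FPKM + 1) scale it had the largest genotype difference of the 9 genes at 48 h, 4.43 (SE 0.05, adjusted p = 2.1e-08), which ranked 15 from the highest of 13166 genes. The order depends on the scale: with a pseudocount of 0.1 the difference was 4.89 for Nr0b1 and 4.88 for Prdm14, and the ratio of mean FPKM was 30.9 for Nr0b1 and 180.4 for Prdm14, whose wild-type level was near 0. The difference between its changes, 3.74 (SE 0.07, adjusted p = 6.2e-07), ranked 19.

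Nr5a2 (Lrh1, at chr1:136842562-136960448), a receptor that binds regulatory DNA of the Oct4 gene, was at 20.8 and 18.4 FPKM in wild-type 2iL and at 13.4 and 13.1 in knockout 2iL. The knockout libraries were below the wild-type ones here (log2 difference -0.53, SE 0.08, adjusted p = 6.8e-04). At 48 h the order was turned, with 0.597 and 0.575 FPKM in the wild type and 6.04 and 6.09 in the knockout. Nr5a2 fell by 3.70 in the wild type (SE 0.08, adjusted p = 1.0e-07) and fell by 1.01 in the knockout (adjusted p = 4.5e-05), with 2.99% and 45.7% left. The difference between the changes was 2.68 (SE 0.11, adjusted p = 5.9e-06).

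Zfp42 (Rex1), a zinc finger protein related to Yy1 whose reporter lines are widely used to follow the naive state, lies at chr8:43295067-43307009. It was at 198 and 201 FPKM in wild-type 2iL, 20.1 and 20.9 at 48 h, 154 and 167 in knockout 2iL, and 119 and 114 in the knockout at 48 h. Like Nr5a2 it was lower in the knockout in 2iL (log2 difference -0.31, SE 0.05, adjusted p = 0.00119) and higher at 48 h (2.45, SE 0.05, adjusted p = 8.5e-08). Quantile scaling of the libraries ended the call in 2iL (-0.05, adjusted p = 0.268). The level left at 48 h was 10.2% in the wild type, the highest share among the 8 genes that fell, and 72.5% in the knockout. The difference between the changes was 2.76 (SE 0.07, adjusted p = 1.2e-06).

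Tbx3, a T-box factor downstream of LIF and PI3K signalling, fell far in both genotypes. It lies at chr5:119670534-119684724 and was at 18.0 and 18.2 FPKM in wild-type 2iL, 0.214 and 0.0767 at 48 h, 24.4 and 23.2 in knockout 2iL, and 0.861 and 1.43 in the knockout at 48 h. The knockout at 48 h was above the wild type without overlap, yet held 6.33% of the wild-type 2iL level, the lowest such share of the 9 genes. Tbx3 fell by 4.06 in the wild type (SE 0.13, adjusted p = 5.1e-07) and fell by 3.54 in the knockout (adjusted p = 1.9e-06), and the difference between these changes was not called (0.52, SE 0.19, adjusted p = 0.0579). That value turned with the settings: it was 1.97 (adjusted p = 0.00928) with a pseudocount of 0.1, -0.06 (adjusted p = 0.558) with 5, and 0.71 (adjusted p = 0.0101) without the first knockout library at 48 h. The antisense genes Tbx3os1 and Tbx3os2 were listed at 0 to 0.753 and 0 to 0.154 FPKM; whether the authors' quantification used strand is not given in the sources used here, so overlapping reads cannot be told apart.

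Gbx2, a homeobox factor that is a STAT3 target in naive cells and is also active in the later embryo, was the exception. It lies at chr1:89927962-89931176 and was at 10.2 and 8.91 FPKM in wild-type 2iL, 14.9 and 12.9 at 48 h, 8.01 and 8.77 in knockout 2iL, and 14.7 and 14.3 in the knockout at 48 h. Both genotypes were higher at 48 h than in 2iL without overlap, and at 48 h the knockout libraries lay between those of the wild type. Wild-type cells had a rise of 0.50 (SE 0.09, adjusted p = 0.00276), and knockout cells one of 0.72 (adjusted p = 5.8e-04). No genotype difference was called in 2iL (-0.17, SE 0.09, adjusted p = 0.153), at 48 h (0.06, SE 0.09, adjusted p = 0.564) or between the changes (0.23, SE 0.13, adjusted p = 0.199).

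**Figure D2:**
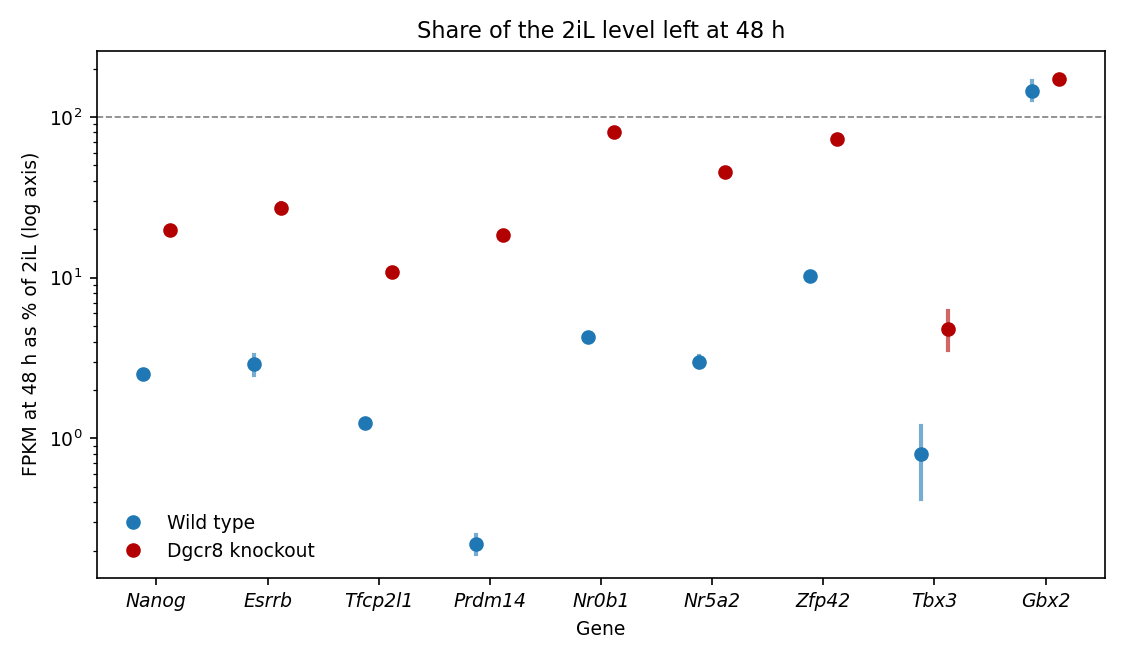
Level at 48 h as a percent of the level in 2iL for each of the 9 genes in wild-type and Dgcr8-/- cells, on a log axis; points are ratios of group means and lines span the ratios of single libraries. The 8 genes that fell range from 0.219% (Prdm14) to 10.2% (Zfp42) in the wild type and from 4.82% (Tbx3) to 81.1% (Nr0b1) in the knockout, while Gbx2 is above 100% in both.

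Across the 9 genes, 8 were called lower and 1 higher at 48 h in the wild type, where 25.6% of all genes tested were called lower and 30.9% higher. All 8 fell by at least 1 on the log2 scale, as did 6.13% of all genes. The median of the 9 changes was -4.04, beside 0.03 over all genes. In the knockout, 8 were again called lower, beside 21.9% of all genes, and Gbx2 was called higher, beside 26.5%. The median change there was -1.86. The wild-type and knockout changes use separate libraries, but their calls share, for each gene, the same estimate of spread from all libraries.

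In 2iL the knockout was called higher for Nanog, Tfcp2l1, Prdm14, Nr0b1 and Tbx3 and lower for Nr5a2 and Zfp42, and Esrrb and Gbx2 were not called. These 5 and 2 of 9 stand beside 30.6% of all genes called higher and 32.8% called lower. The called differences ran from -0.53 (Nr5a2) to 1.03 (Prdm14), and Tbx3 was the least secure (0.38, SE 0.13, adjusted p = 0.0385). Leaving out either wild-type 2iL library (adjusted p = 0.121 and 0.111) or either knockout 2iL library (0.142 and 0.0870) ended the Tbx3 call. FPKM summed over all genes in 2iL was 548369 and 548144 in the wild type and 475200 and 511663 in the knockout. Over the 9 genes alone, without rescaling, it was 748 and 756 in the wild type and 843 and 889.9 in the knockout. Summed primitive streak markers, led by Gsc and Evx1, were also higher in knockout 2iL (11.3 to 12.0 FPKM) than in wild-type 2iL (2.75 to 3.02 FPKM), and their part in the result was not tested.

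At 48 h the knockout was called higher for 8 of the 9 genes and lower for none, beside 33.4% and 38.5% of all genes. For 7 of them the difference was at least 1 on the log2(FPKM + 1) scale, as for 11.3% of all genes, and for Tbx3 it was 0.90 (SE 0.13, adjusted p = 5.8e-04). The count of 7 depends on the pseudocount. Over the alternatives Prdm14 ran from 0.74 to 4.88, Nr5a2 from 0.99 to 3.17 and Tbx3 from 0.25 to 2.36. Summed over the 9 genes, the level was 49.7 and 46.8 FPKM in the wild type and 329.8 and 320.0 in the knockout. Nr0b1 in the knockout at 48 h was at 132% of its wild-type 2iL level, and Zfp42 at 58.4%, while Tfcp2l1 was at 15.0%. This comparison uses the same 48 h libraries as the changes over time, so its values are not separate evidence of them.

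**Figure D3:**
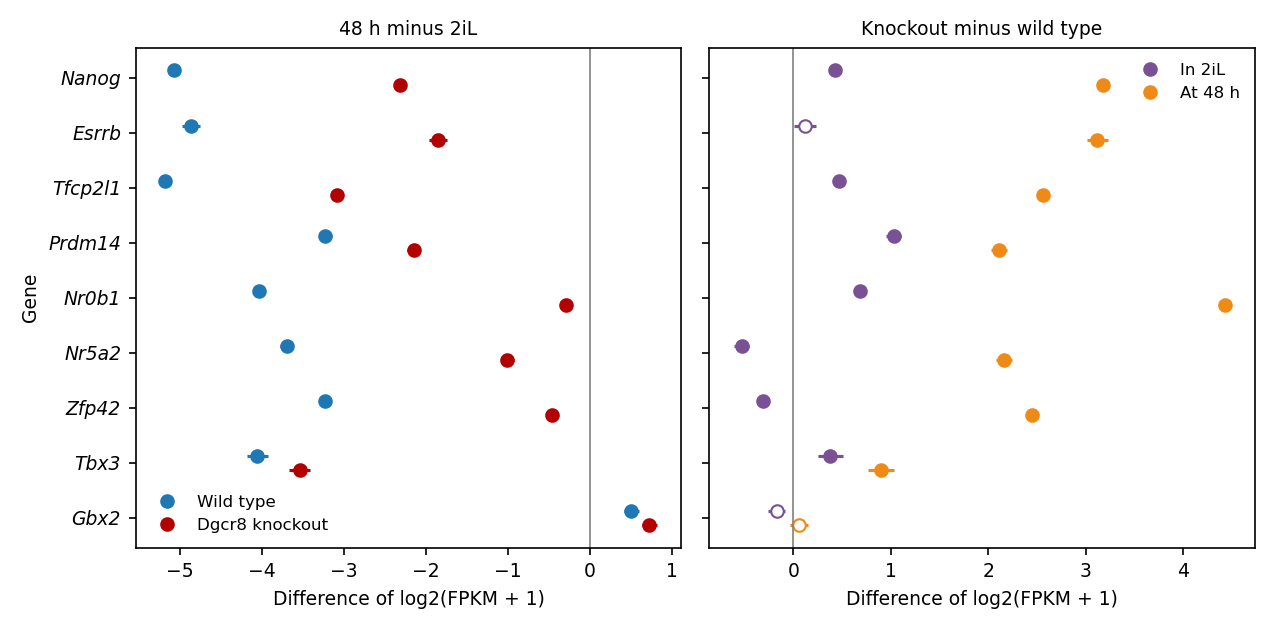
Differences of log2(FPKM + 1) of the 9 genes, for 48 h minus 2iL in each genotype (left) and for knockout minus wild type under each condition (right); bars are ± 1 SE, hidden by the symbol where short, and open symbols were not called. On this scale, which understates the change of low genes such as Prdm14, Nr0b1 has the largest genotype difference at 48 h, 4.43, and Gbx2 the smallest, 0.06.

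The difference between the knockout and the wild-type change was called higher for 7 of the 9 genes and lower for none, beside 21.1% and 21.7% of all genes. All 7 differences were at least 1 on the log2(FPKM + 1) scale, as for 6.29% of all genes. Their size depends on the pseudocount. Over the alternatives Prdm14 ran from -0.05 to 3.78, Tfcp2l1 from 0.89 to 2.96 and Nr5a2 from 1.41 to 3.73. Nanog, Esrrb, Nr0b1 and Zfp42 stayed above 1. The median over the 9 genes was 2.68, beside -0.01 over all genes. Of these 7 genes, Nr0b1 and Zfp42 kept 81.1% and 72.5% of their 2iL level in the knockout and Nr5a2 kept 45.7%, whereas Esrrb, Nanog, Prdm14 and Tfcp2l1 kept 27.1%, 19.8%, 18.3% and 10.8%. These differences among genes were not tested.

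**Figure D4:**
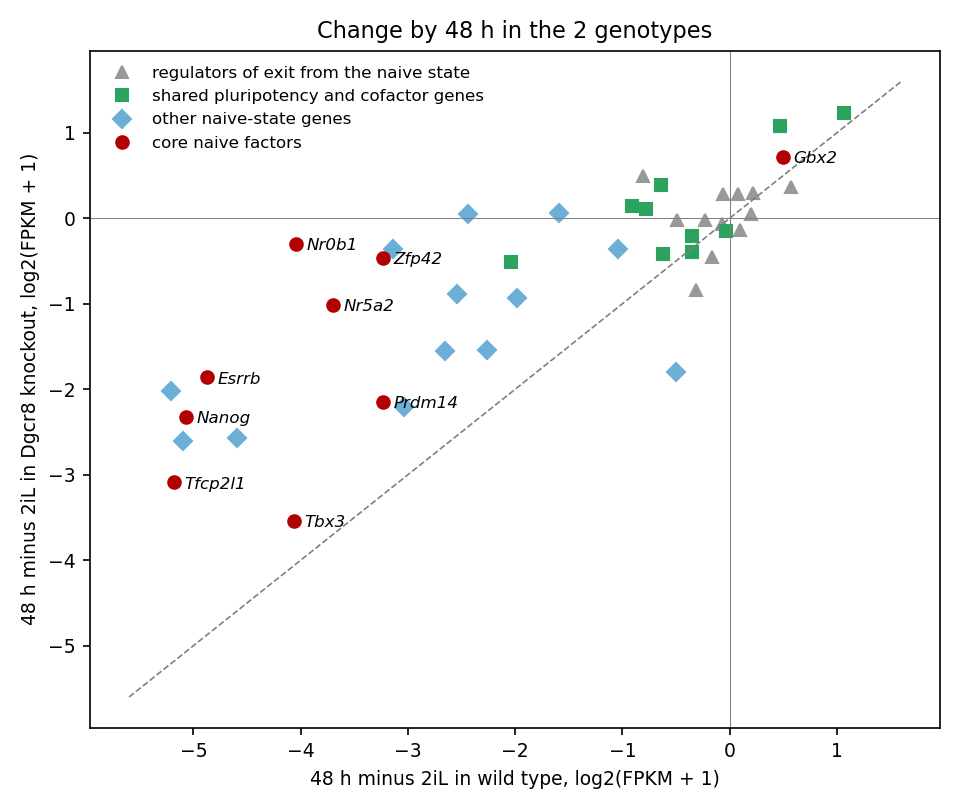
Change from 2iL to 48 h on the log2(FPKM + 1) scale in wild-type cells (x axis) against Dgcr8-/- cells (y axis), for the 9 genes (labelled circles), 13 other naive-state genes, 10 shared pluripotency and cofactor genes and 12 exit regulators. Nanog, Esrrb, Nr0b1, Nr5a2, Zfp42, Tfcp2l1 and Prdm14 lie above the dashed diagonal of equal change by 1.08 to 3.74, and among the 9 genes Tbx3 and Gbx2, whose differences were not called, lie nearest to it.

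The order of the 9 genes by FPKM, which is corrected for length, changed with the condition. In wild-type 2iL it ran Nanog, Zfp42, Esrrb, Tfcp2l1, Nr0b1, Nr5a2, Tbx3, Gbx2 and Prdm14, and of neighbours in this order Gbx2 and Prdm14 overlapped. In the wild type at 48 h Zfp42 and Gbx2 came first and second, ahead of Nanog and Esrrb, which overlapped, and Tbx3 and Prdm14 came last. In knockout 2iL the order began with Nanog, Esrrb and Zfp42 and ended with Gbx2. In the knockout at 48 h it began with Zfp42, Nr0b1, Nanog and Esrrb, with no neighbours overlapping, and Tbx3 came last.

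The genes with the courses closest to each member were named by the root mean square difference of centred log2(FPKM + 1) over the 8 libraries. Jam2, a junctional adhesion molecule, was closest to Nanog (0.125) and to Tfcp2l1 (0.211), and second to Esrrb (0.287), for which the growth factor gene Pdgfa came first (0.262). The other first names were Ckb for Prdm14 (0.124), Manba for Nr0b1 (0.174), Spp1 for Nr5a2 (0.253), 1700097N02Rik for Zfp42 (0.15), 2310043M15Rik for Tbx3 (0.402) and Foxj1 for Gbx2 (0.0735). The next names were Pdgfa (0.395) and 2210409E12Rik (0.425) for Nanog, Pglyrp1 (0.352) and Lrrc34 (0.427) for Tfcp2l1, Tfap2c (0.158) and Cpt1a (0.162) for Prdm14, and Gprc5a (0.254) and Nid1 (0.279) for Nr0b1. They were Mras (0.306) and Fam25c (0.32) for Nr5a2, Morc1 (0.168) and Stmn2 (0.195) for Zfp42, Klf4 (0.403) for Tbx3, and Zfp113 (0.0793) and Shank1 (0.0865) for Gbx2, and 2210409E12Rik (0.4) followed Jam2 for Esrrb. Foxj1 and Shank1 were low, with group means of 0.339 to 1.21 and 0.266 to 1.25 FPKM, where this scale understates changes. Among the 9 themselves, Nr5a2 and Zfp42 were close (0.295), and Tfcp2l1 was closest to Nanog (0.318). The count of other genes nearer than any member was 12843 for Gbx2, 62 for Nr0b1, 52 for Prdm14 and 13 for Tbx3. It was 0 to 5 for the rest. With Pearson's correlation as the measure, 0 or 1 of the 3 names per gene were shared, so the names rest on the measure.

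Of 13 other naive-state genes, all 13 fell in the wild type (median -2.54), beside 25.6% of all genes. The largest changes were in Tcl1 (-5.21), Jam2 (-5.10) and Klf4 (-4.59). In the knockout 11 of the 13 fell (median -1.54), beside 21.9% of all genes, and Fbxo15 (0.05) and Pecam1 (0.06) were not called. In 2iL, 6 were higher and 6 lower in the knockout, beside 30.6% and 32.8% of all genes. At 48 h 12 of the 13 were higher in the knockout, led by Klf2 (3.66), and Dppa3 was lower (-0.40), beside 33.4% and 38.5%. The difference between the changes was called higher for 12, led by Tcl1 (3.20), and lower for Dppa3 (-1.30), beside 21.1% and 21.7%. These genes were listed with earlier results of these data known, so their direction is not separate support for that of the 9.

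Of 10 genes shared by pluripotent states or known as cofactors of the 9, 7 fell and 2 rose (Utf1, 1.07, and Dppa4, 0.47) in the wild type, beside 25.6% and 30.9% of all genes, and 4 fell and 3 rose in the knockout, beside 21.9% and 26.5%. At 48 h 7 were higher and 2 lower (Utf1, -0.39, and Sall4, -0.27) in the knockout, beside 33.4% and 38.5% of all genes, with Sox2, the partner of Oct4, furthest apart (2.46), and the difference between the changes was called higher for 5 and lower for none, beside 21.1% and 21.7%, again led by Sox2 (1.53). Ncoa3, a coactivator of Esrrb, fell by 0.91 in the wild type and was not called in the knockout (0.14), with a called difference of 1.05.

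Of 12 known regulators of exit from the naive state, 4 fell and 2 rose in the wild type and 2 fell and 5 rose in the knockout (all genes: 25.6% and 30.9%, then 21.9% and 26.5%). At 48 h 3 were higher and 3 lower in the knockout, beside 33.4% and 38.5% of all genes. Rbpj (1.30) and Zfp706 (-1.06) were furthest apart. The difference between the changes was higher for 4 and lower for 2, beside 21.1% and 21.7% of all genes. Of 11 formative and primed genes, 9 rose and Dnmt3l fell (-0.44) in the wild type, and 8 rose and Foxd3 fell (-0.39) in the knockout, beside the same shares of all genes. At 48 h 7 were lower in the knockout, beside 38.5% of all genes, with Dnmt3a furthest apart (-2.12). Dnmt3l (1.22) and Otx2 (0.54) were higher, beside 33.4%. Between the changes the difference was lower for 7, beside 21.7% of all genes. It was higher for 2, Dnmt3l (4.6) and Otx2 (1.05), beside 21.1%. Dnmt3l, a cofactor of the de novo DNA methyltransferases, was below the wild type in knockout 2iL (-3.38) and rose in the knockout (4.16).

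Summed levels of the other marker lists also differed between conditions. In the order wild-type 2iL, wild type at 48 h, knockout 2iL and knockout at 48 h, primitive endoderm markers summed to 7.83 to 8.07, 9.34 to 10.4, 5.48 to 5.62 and 11.4 to 12.2 FPKM. Trophectoderm markers summed to 28.0 to 28.4, 32.3 to 32.5, 37.3 to 40.2 and 36.1 to 36.2 FPKM, mostly from Tfap2c, Krt8 and Krt18. Primitive streak markers summed to 0.696 to 1.15 FPKM in the wild type and 3.67 to 3.94 in the knockout at 48 h. Neuroectoderm markers, including Nes and Msi1, summed to 23.2 to 23.8, 45.5 to 46.2, 19.0 to 21.6 and 25.8 to 26.9 FPKM. The part of these genes in the changes of the 9 was not tested.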

How the data were processed

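The authors deposited 1 table of gene-level FPKM for 8 RNA libraries; the submitters' processing notes name STAR 2.5.0, Cufflinks 2.2.1 and mm10. The annotation release and strand setting are not stated in the sources used here. The labels give the molecule as polyA RNA, whereas the design text speaks of total RNA. The other 8 of the 16 libraries, of small RNA, were not used here.

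Of 41258 rows, the first was kept for each of 41202 identifiers (56 repeats), and values below 1e-06 FPKM were set to 0. Symbols were matched for 40071 identifiers and not for 1131. No per-library column was left unmapped. The 13166 genes that reached 1 FPKM in 2 or more libraries were fitted as log2(FPKM + 1) with limma 3.58.1 in R 4.3.3, with 4 group means and an intensity trend (4 residual and 3.12 prior degrees of freedom), and p-values were Benjamini-Hochberg adjusted over all genes tested. The fit was tested on simulated data. Read depth is unknown, so no counting error is given.

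The 9 genes, the 11 gene lists and the tests were chosen with earlier results of these data known. All 9 are named throughout; from other lists, up to 4 genes per comparison with the largest called differences, a single exception in direction, and the nearest 3 genes by course (1 of these is not reported here). Ncoa3, Fbxo15, Pecam1 and the exceptions that came in pairs were named after their values were seen, as were single marker genes. Alternatives changed the pseudocount, filter, scaling, replicate block and libraries. Promoter sequences are from RefSeq, GRCm38.p6.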

Additional observations from a re-analysis of the deposited data

Results flagged for a closer look

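The change from 2iL to 48 h differed between Dgcr8-/- and wild-type cells for 7 of the 9 genes, by the interaction term of the limma fit with Benjamini-Hochberg adjustment over 13166 genes. The knockout change minus the wild-type change was 2.75 for Nanog (adjusted p = 1.2e-06), 3.0 for Esrrb (1.3e-05) and 2.09 for Tfcp2l1 (5.6e-06). It was 1.08 for Prdm14 (2.9e-04), which was 3.78 (6.8e-06) with a pseudocount of 0.1 and -0.05 (0.584) with 5. Among the nuclear receptors it was 3.74 for Nr0b1 (6.2e-07) and 2.68 for Nr5a2 (5.9e-06), and for Zfp42 it was 2.76 (1.2e-06). In each case the fall was smaller in the knockout, and 21.1% of all genes tested were called in this direction. With 2 libraries per group, single libraries were not tested as outliers.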

How the results depend on the processing

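Under 17 alternatives, 8 of which left out 1 library each, every count of the 9 genes called stayed within 1.5 times its value. Of 756 single differences of the 9 genes, 741 kept direction and call, 8 lost the call, 4 gained it and 3 turned sign. The 3 that turned were the Prdm14 (-0.05) and Tbx3 (-0.06) differences between the changes with a pseudocount of 5 and the Gbx2 genotype difference at 48 h, which was not called under any leave-one-out setting and ran from -0.03, without the second wild-type library at 48 h, to 0.16. The Tbx3 difference in 2iL also lost its call with a pseudocount of 0.1 (0.39, adjusted p = 0.284), without a filter (adjusted p = 0.0854) and in the fit with a replicate block (0.38, adjusted p = 0.0542). Quantile scaling added calls in 2iL for Esrrb (0.39, adjusted p = 0.0136) and Gbx2 (-0.26, adjusted p = 0.0294). The number of all genes with a called difference between the changes was 5643, and 3613 of 8584 with a mean of at least 5 FPKM, where fewer genes were tested. Same-numbered libraries deviated from their group means with correlations of -0.153 to 0.18. With 2 libraries per group, these values cannot show whether same-numbered libraries shared a batch. The replicate block gave 7223, 6100, 8192, 9321 and 5364 called genes, against 7440, 6368, 8345, 9456 and 5643 without it. The order is wild type over time, knockout over time, genotype in 2iL, genotype at 48 h and the difference between the changes. Leaving out 1 library gave 6085 to 7688, 4908 to 6187, 7319 to 8149, 8366 to 9583 and 4481 to 5374. Of 108 shares of the 2iL level left, 98 moved by less than the spread between libraries and 10 by more. All 10 came with median-ratio or quantile scaling. Most of the 108 left out 1 of 2 libraries, which can hardly move a share by more than that spread, so the 98 do not show stability. Levels below 1 FPKM, such as Prdm14 and Tbx3 in the wild type at 48 h, are the least precise, and their depth is unknown.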

Other observations

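Relatives of the 9 genes in the same protein families did not share one course. Of 14 listed, 9 passed the filter; Esrrg, Nr5a1, Nr0b2, Tbx2 and Gbx1 did not. In the wild type 3 rose and 2 fell at 48 h, beside 30.9% and 25.6% of all genes. Grhl2, a relative of Tfcp2l1 that maintains epithelial genes, rose by 2.59 in the wild type and by 2.05 in the knockout. Prdm1, a relative of Prdm14 that acts in germ cell specification, fell by 1.88 in the wild type and fell by 1.02 in the knockout. Nr6a1 (germ cell nuclear factor), known as a repressor of the Oct4 gene, was at 12.9 and 11.2 FPKM in wild-type 2iL and 30.7 and 29.0 at 48 h, but at 26.1 and 25.9 in knockout 2iL and 20.3 and 21.1 at 48 h. It rose by 1.24 in the wild type, and the difference between its changes was -1.56. Grhl3 differed the other way (1.32). Esrra, Ubp1 and Yy1, relatives of Esrrb, Tfcp2l1 and Zfp42, were not called at 48 h against 2iL in either genotype.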
